A study of Mus musculus with 4 samples.

Results

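The 10 genes described here encode secreted or membrane-bound proteins that attract leukocytes: the CC chemokines Ccl2, Ccl3, Ccl4, Ccl6, Ccl7 and Ccl9, and the CXC chemokines Cxcl1, Cxcl2, Cxcl3 and Cxcl16. They were taken by symbol from the gene list of the count tables, without regard to their values, and are 10 of the 32285 genes counted. All 10 were found, each as 1 row.

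The cells were myeloid-derived suppressor cells (MDSCs), immature myeloid cells that restrain T cells, grown from the bone marrow of wild-type (WT) mice on a C57BL/6 background, whose age and sex the labels do not give. Every culture received IL-6 and GM-CSF, each at 40 ng/mL, and was harvested on day 4. Cultures received either isoproterenol (ISO), a synthetic β-adrenergic agonist, at 10 µM from the start with daily additions, or PBS. Live CD11b+ cells carrying a multiplexing tag were sorted, pooled and profiled by droplet single-cell RNA sequencing, which gave the libraries WT+PBS and WT+ISO, 1 per group. The labels do not say how many mice or cultures stand behind a library. The treatment entry of both samples reads isoproterenol, so WT+PBS is known from its title and from the study's methods. With 1 library per group no test between groups was possible, and the differences below are sizes, not tested effects.

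After filtering, 4474 of 4532 WT cells were kept, 2210 with PBS and 2264 with ISO, with 24393687 and 29400468 unique molecular identifiers (UMIs) and a median of 8088.5 and 10252 UMIs per cell. No barcode was shared between libraries, and in each library 1 of the 12 tags took 95.4% and 97.1% of the tag UMIs. Itgam, which encodes CD11b, had a UMI in 87.5% and 88.4% of cells.

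Chemokines bind heptahelical receptors on leukocytes and guide them along gradients. Among CXC chemokines, Cxcl1, Cxcl2 and Cxcl3 call neutrophils through Cxcr2, while among CC chemokines Ccl2 and Ccl7 call monocytes through Ccr2, and Ccl3 and the rodent chemokines Ccl6 and Ccl9 act on Ccr1. Cxcl16 differs from the other members in that it is made as a membrane protein, also serves as a scavenger receptor, and is shed by the proteases ADAM10 and ADAM17 to attract cells that carry Cxcr6. Many of these genes are switched on by NF-κB after microbial or cytokine signals, and in myeloid cells ligands that raise cAMP are known to change inflammatory transcripts.

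On the mouse genome (RefSeq, GRCm38.p6, the build that the labels name mm10), 7 members lie on chromosome 11 and 3 on chromosome 5. Cxcl3 lies at chr5:90786101-90788093, Cxcl1 at chr5:90891245-90893121 and Cxcl2 at chr5:90903899-90905938. The RefSeq spans of the neighbours Ccl3 (chr11:83647843-83649378) and Ccl4 (chr11:83648624-83664683) overlap, so reads in the overlap could be counted for either gene. RefSeq promoters, running from 250 bases before to 50 bases after a gene's start, were at hand for 6 members: Ccl3, Ccl6, Ccl9, Cxcl1, Cxcl2 and Cxcl3. The promoters of the neighbouring neutrophil chemokines on chromosome 5, all on the plus strand, are shown because Cxcl3 alone of these 3 genes was higher with ISO. The ratios of Cxcl1 and Cxcl2 overlapped in their counting intervals. They are written 5′ to 3′, with capitals marking every match on either strand to the κB-like pattern GGGNNNNNCC, a general form of the DNA element bound by NF-κB.
Cxcl1, chr5:90890995-90891294: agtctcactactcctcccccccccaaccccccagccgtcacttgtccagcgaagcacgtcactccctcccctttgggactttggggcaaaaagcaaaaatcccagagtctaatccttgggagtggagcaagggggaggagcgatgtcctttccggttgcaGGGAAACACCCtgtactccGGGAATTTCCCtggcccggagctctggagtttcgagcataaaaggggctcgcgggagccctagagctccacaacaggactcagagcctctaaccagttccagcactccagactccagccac
Cxcl2, chr5:90903649-90903948: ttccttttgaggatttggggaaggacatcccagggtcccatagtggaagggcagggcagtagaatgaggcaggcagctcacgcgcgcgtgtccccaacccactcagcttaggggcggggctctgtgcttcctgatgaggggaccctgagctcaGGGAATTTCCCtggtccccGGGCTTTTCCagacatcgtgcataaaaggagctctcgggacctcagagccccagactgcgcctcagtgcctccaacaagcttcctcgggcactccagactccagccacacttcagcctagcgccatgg
Cxcl3, chr5:90785851-90786150: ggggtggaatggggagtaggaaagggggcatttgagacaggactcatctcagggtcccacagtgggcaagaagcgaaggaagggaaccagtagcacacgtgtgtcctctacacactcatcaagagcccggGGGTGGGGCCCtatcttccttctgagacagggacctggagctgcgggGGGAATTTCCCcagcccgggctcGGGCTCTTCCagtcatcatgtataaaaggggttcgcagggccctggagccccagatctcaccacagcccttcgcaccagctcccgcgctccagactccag
Counted on each strand, with overlapping matches counted separately, Cxcl1 held 4 matches, Cxcl2 held 3 and Cxcl3 held 5. The pattern is loose and was present in 50.95% of 32544 RefSeq promoters of this length. All of these windows hold the stretch GGGAATTTCC, which begins at position -71 from the start of Cxcl1, at position -97 in Cxcl2 and at position -73 in Cxcl3. TGACG, the core of the cAMP response element, was found 2 times in the Cxcl1 window, on the minus strand, and in 20.9% of all promoters. It was not found in the windows of Cxcl2 and Cxcl3. TATAAA was found in the Cxcl3 window, at position -30, and in 13.6% of all promoters. These matches describe letters only and do not show binding, and the share of all promoters with GGGAATTTCC was not counted.

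Transcript levels were read as UMIs per 1000000 UMIs of a library (CPM). They are not divided by transcript length, since each UMI stands for 1 captured molecule, and capture can differ between genes. The 95% intervals given with them, and those of the ratios below, cover counting error only, not the spread between cells or between cultures. The sum of the 10 chemokines took 3584 CPM (3560 to 3608) in WT+PBS against 2871 (2852 to 2891) in WT+ISO, lower with ISO.

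The family was dominated by Ccl6, which draws macrophages and other Ccr1-bearing cells. Ccl6 stood at 2717 CPM (2697 to 2738) with PBS and 2232.5 (2215.5 to 2249.7) with ISO, which placed it at rank 42 and rank 57 of all genes. It gave 75.8% and 77.8% of the UMIs of the 10 genes and had a UMI in 91.9% and 90.9% of cells. Its level was thus lower in WT+ISO, while its part of the family's UMIs was slightly higher there.

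Cxcl2, a neutrophil attractant, was the next most abundant member, at 323 CPM (316 to 330.0) in WT+PBS against 253 (247 to 259) in WT+ISO. Ccl3, an attractant for macrophages and T cells, stood at 202 CPM (197 to 208) and 156 (151 to 160.2). Ccl9, which acts on Ccr1-bearing cells, stood at 165 CPM (159.7 to 169.9) and 125 (121 to 129.6). In these 3 genes the intervals did not overlap and WT+ISO was lower, although more cells had a Ccl3 UMI in WT+ISO, 48.4% against 44.0% in WT+PBS.

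Ccl4, a close relative of Ccl3, stood at 130 CPM (126 to 135) with PBS and 59.7 (56.9 to 62.6) with ISO. The Ccl4 UMIs were concentrated in few cells: in WT+PBS, 10 cells held 39.7% of them and 1 cell alone held 440, while in WT+ISO the 10 richest cells held 27.46% and the richest cell held 97. Among members with fewer UMIs than Ccl4, the 10 richest cells held 35.5% and 53.4% of the Cxcl16 UMIs. They held 23.5% and 36.2% of the Ccl2 UMIs and 25.1% and 22.8% of the Cxcl3 UMIs. Among members with more UMIs than Ccl4 the shares were lower. They were 20.8% and 9.48% for Ccl3, 9.91% and 11.2% for Ccl9, 9.64% and 7.97% for Cxcl2 and 4.17% and 3.86% for Ccl6.

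Among the rarer members, Ccl2, the main monocyte attractant, stood at 14.6 CPM (13.2 to 16.2) in WT+PBS against 12.2 (10.98 to 13.5) in WT+ISO, with overlapping intervals. Cxcl16 stood at 15.6 CPM (14.1 to 17.2) and 5.92 (5.07 to 6.87), well below in WT+ISO. Cxcl3, a neutrophil attractant, stood at 13.9 CPM (12.4 to 15.4) and 25.6 (23.8 to 27.5) and was the only member of the 10 with the higher level in WT+ISO. In WT+PBS the intervals of Cxcl16, Ccl2 and Cxcl3 overlapped, and in WT+ISO Cxcl3 stood above Ccl2 and Ccl2 above Cxcl16.

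Cxcl1 and Ccl7 were near the limit of detection. Cxcl1, a neutrophil attractant, had 36 UMIs with PBS and 24 with ISO, or 1.48 and 0.816 CPM. Ccl7, a monocyte attractant, had 16 and 15 UMIs, or 0.656 and 0.510 CPM. The intervals of the libraries overlapped for both genes, and no more than 1.09% of cells in either library had a UMI of Cxcl1 and no more than 0.407% one of Ccl7.

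**Figure D1:**
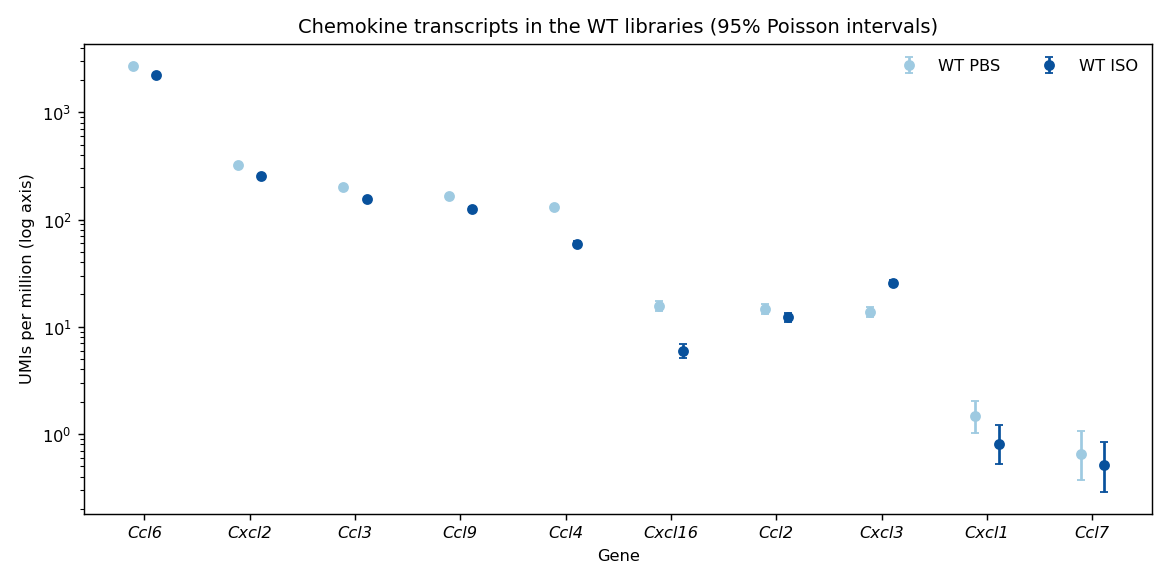
Level of the 10 chemokines in the WT libraries, in CPM on a log axis, with 95% Poisson intervals that cover counting error. Ccl6 lies at 2232.5 to 2717, while Cxcl1 and Ccl7 lie at 0.510 to 1.48. Cxcl3 is the only member that is higher in WT+ISO.

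To find the cells behind these levels, all 9303 cells of the series were clustered on genes other than the chemokines, and the 7 clusters were named only where a fixed list of markers allowed it. Cluster 0 was macrophage-like (403 cells of WT+PBS and 262 of WT+ISO; Mrc1, C1qb), cluster 2 mature neutrophil-like (316 and 465 cells; Retnlg, Mmp9, Cxcr2), cluster 3 azurophil-granule progenitor-like (367 and 596 cells; Mpo, Elane), cluster 4 specific-granule neutrophil-like (319 and 350 cells; Ltf, Camp) and cluster 6 dendritic-cell-like (37 and 15 cells; Ccr7, Fscn1). Cluster 1 (566 and 326 cells; Gpnmb, Atp6v0d2) and cluster 5 (202 and 250 cells; Kcnq5, Matn2) were left unnamed. Cluster 1 detected 4 of the 5 mature neutrophil markers but had none of them among its leading genes, and its median of 3027.5 UMIs per cell was low. Cluster 0 detected 3 macrophage markers and 5 monocyte markers. Of these, 2 macrophage markers and 0 monocyte markers were among its leading genes. It may therefore hold monocytes as well, and ratios within it need not describe a single cell type. The names were rebuilt here and are not the study's.

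Cluster 1 had the highest level of the 10 chemokines together, at 13114 CPM in WT+PBS against 11319 in WT+ISO, followed by the mature neutrophil-like cluster at 10908 and 9652. Cluster 1 held 33.6% (95% exact binomial interval 33.3 to 33.9) of their UMIs with PBS and 19.6% (19.3 to 19.9) with ISO, in step with its share of cells, which was 25.6% and 14.4%. The mature neutrophil-like cluster held 18.2% (17.9 to 18.5) and 32.2% (31.9 to 32.5), and the macrophage-like cluster 34.3% (33.98 to 34.6) and 30.8% (30.5 to 31.1). In WT+PBS the macrophage-like cluster (29982 UMIs) and cluster 1 (29401 UMIs) thus held nearly equal parts of the family's UMIs. A single macrophage-like cell held 905 of them. Without the richest cell of each cluster the counts were 29077 and 28859, so their order rests on few cells. In WT+ISO the mature neutrophil-like cluster held the largest part. With 4000 variable genes in place of 2000, another cluster had the highest level, of which 7.28% of the cells were cells of cluster 1, so the ranking by level holds for the clustering used here.

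The level of Ccl3 in cluster 1 was 906 CPM in WT+PBS against 782 in WT+ISO, and no other cluster reached these values. The mature neutrophil-like cluster (288 and 344 CPM) and the specific-granule neutrophil-like cluster (331 and 243) followed. Their intervals overlapped in WT+PBS, while in WT+ISO that of the mature neutrophil-like cluster lay above. Ccl4 was also highest in cluster 1, at 578 and 456 CPM, above the macrophage-like cluster at 201 and 141. In CPM, Ccl2 likewise led in cluster 1 at 63.8 and 82.8, followed by the macrophage-like cluster at 27.0 and 39.5, with no overlap between them. Cells of cluster 1 held less RNA, and in UMIs per cell the macrophage-like cluster stood above cluster 1 for Ccl2 and Ccl4. Ccl2 had 0.434 and 0.721 UMIs per macrophage-like cell against 0.253 and 0.371 in cluster 1, and Ccl4 had 3.24 and 2.57 against 2.29 and 2.04. For Ccl3 these means were 2.52 and 3.55 against 3.59 and 3.51. Of the cells of cluster 1 thinned to 2000 UMIs, 6.96% with PBS and 11.5% with ISO had UMIs of 5 or more of the 10 genes, and the median cell had 3 in both.

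In CPM, Ccl6 was highest in 2 clusters. In cluster 1 it stood at 10036 CPM in WT+PBS against 8415 in WT+ISO, and in the mature neutrophil-like cluster at 9588 and 8411. In WT+PBS the interval of cluster 1 (9905 to 10168) lay above that of the mature neutrophil-like cluster (9430 to 9748). In WT+ISO their intervals overlapped. Ccl6 then went down in order through the macrophage-like cluster (3264 and 3882 CPM) and the specific-granule neutrophil-like cluster (2203 and 1881). It was lowest in the azurophil-granule progenitor-like cluster, at 222 and 255 CPM. In UMIs per cell, Ccl6 was highest in the macrophage-like cluster (52.5 and 70.9). The mature neutrophil-like cluster (44.25 and 50.9) and cluster 1 (39.8 and 37.7) followed. Along the neutrophil lineage as these names order it, Ccl6 was thus higher in cells with markers of later stages. Cxcl2 had a similar pattern, at 921 and 841 CPM in cluster 1 and 873 and 745 in the mature neutrophil-like cluster. It stood at 541 and 602 CPM in the macrophage-like cluster and at 24.8 and 22.6 in the progenitor-like one. The macrophage-like cluster held 41.7% of the Cxcl2 UMIs, with 8.71 and 10.99 per cell against 3.65 and 3.77 in cluster 1.

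Ccl9 was a gene of cluster 1 (574 and 655 CPM) and of the macrophage-like cluster (369 and 458), which did not overlap, and was low in the mature neutrophil-like cluster (39.8 and 23.4). In UMIs per cell, Ccl9 was higher in the macrophage-like cluster (5.93 and 8.355) than in cluster 1 (2.28 and 2.94). The macrophage-like cluster, with more RNA per cell, held 59.4% of all Ccl9 UMIs. It also held 80.0% of the Cxcl1 UMIs and 74.2% of the Ccl7 UMIs. Cxcl3 was spread over the mature neutrophil-like cluster (35.0 and 35.9 CPM), the macrophage-like cluster (31.4 and 98.5) and cluster 1 (28.5 and 84.8). In WT+PBS the intervals of these 3 overlapped. In WT+ISO the macrophage-like cluster (89.8 to 107.8) and cluster 1 (70.6 to 101.1) lay above the mature neutrophil-like cluster (29.2 to 43.6).

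Cxcl16 was the exception in the family. The dendritic-cell-like cluster expressed it at 346 CPM with PBS and 441 with ISO, far above the macrophage-like cluster at 26.2 and 13.4. These few cells, 1.67% and 0.663% of a library, held 53.97% of the Cxcl16 UMIs, and the macrophage-like cells held 42.2%. In the remaining clusters Cxcl16 did not exceed 2.74 CPM.

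**Figure D2:**
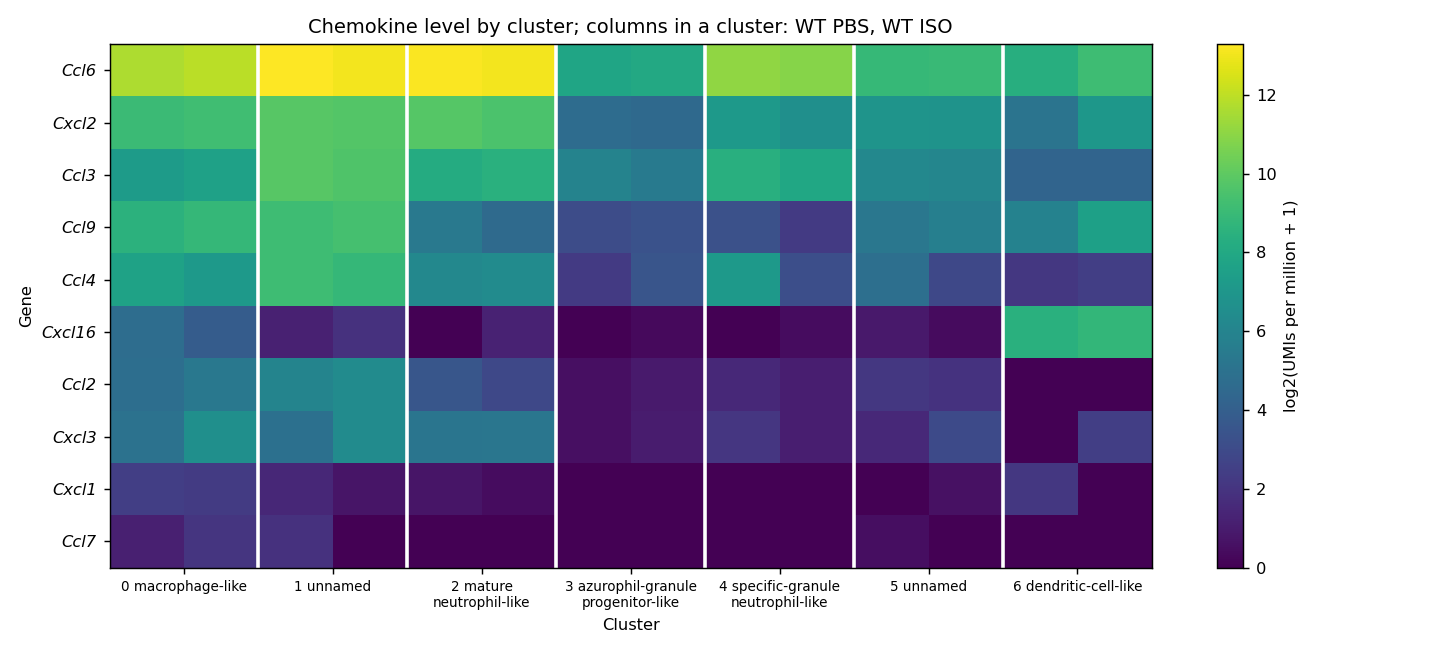
Heat map of the 10 chemokines (rows) in the 7 clusters, each with WT+PBS and WT+ISO as columns, colored by log2(CPM + 1). Ccl6 and Cxcl2 are brightest in clusters 1 and 2, while Cxcl16 is brightest in the dendritic-cell-like cluster, where it stands at 346 and 441 CPM.

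**Figure D3:**
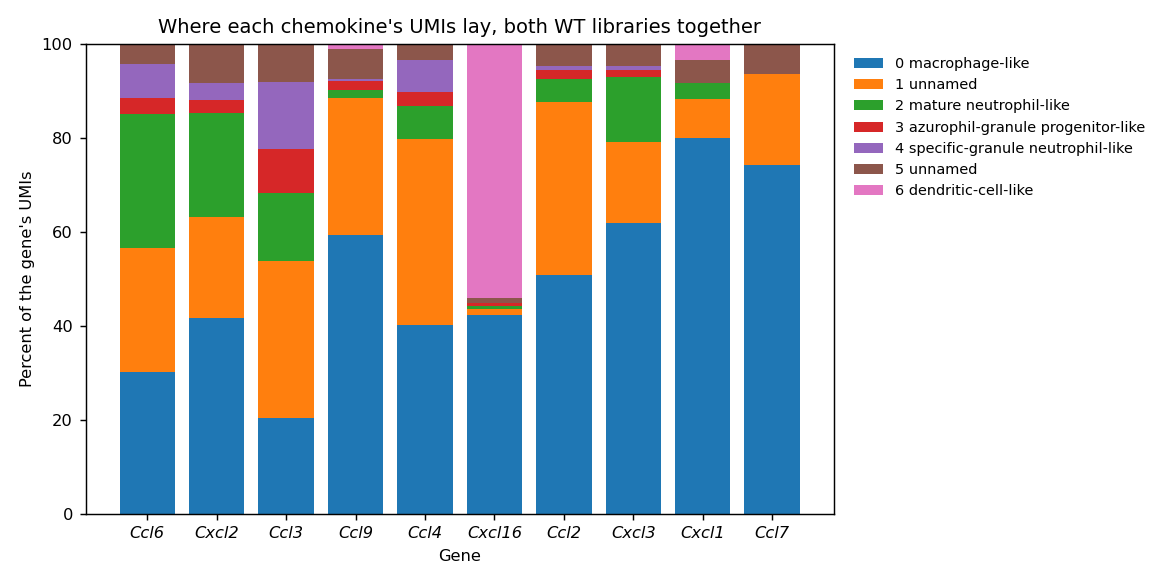
Share of each chemokine's UMIs that lay in each cluster, as stacked bars in percent over both WT libraries together. The macrophage-like cluster holds 80.0% of the Cxcl1 bar and 20.4% of the Ccl3 bar, and the dendritic-cell-like cluster holds 53.97% of the Cxcl16 bar.

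Since cells were pooled before capture, free RNA of an abundant gene can reach every droplet, and its part in the values below was not tested. In the azurophil-granule progenitor-like cluster, where Ccl6 was lowest, 72.8% of WT+PBS cells and 78.0% of WT+ISO cells had a Ccl6 UMI, and after each cell was thinned to 2000 UMIs the shares were 26.5% and 27.99%. In cluster 1 the shares were 93.6% and 92.0% and, thinned, 97.2% and 97.8%. For Ccl3 the thinned shares were 10.9% and 7.42% in the progenitor-like cluster and 44.5% and 58.9% in cluster 1. The median UMIs per cell were 17242 and 17438 in the progenitor-like cluster and 3165 and 3459 in cluster 1. Thinning left out 4 of the progenitor-like cells and 235 of the cells of cluster 1.

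The comparison of WT+ISO with WT+PBS asks how β-adrenergic stimulation during differentiation changed these transcripts. In all cells together, Cxcl3 was higher with ISO and the other members were lower, Cxcl1 and Ccl7 on fewer than 100 UMIs over both libraries. Of all genes with at least 100 UMIs, 0.81% had a lower ratio than Cxcl16 and 17.1% a lower one than Ccl2. The sum was lower by 0.32 on the log2 scale (log2 ratio -0.32, 95% counting interval -0.33 to -0.31). Past 1.5-fold, with at least 100 UMIs over both libraries, 1 member was higher, Cxcl3, and 2 were lower, Ccl4 and Cxcl16. Among all 10771 genes with that many UMIs, 1.00% were higher and 5.50% lower by 1.5-fold. The median log2 ratio of all 10 members, Cxcl1 and Ccl7 included, was -0.37. Beside it, the median over all genes with at least 100 UMIs was -0.02.

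Cell numbers moved with this comparison in the clusters rebuilt here. The study described the frequency of its own clusters as similar between treatment groups. With 1 library per group the spread of such shares is unknown. The azurophil-granule progenitor-like cluster, where the chemokines were low, made up 16.6% of WT+PBS cells and 26.3% of WT+ISO cells, while the macrophage-like cluster held 18.2% and 11.6%, and the mature neutrophil-like cluster held 14.3% and 20.5%. In the summed counts, fewer cells of a type and less RNA per cell cannot be told apart. Ratios were therefore also computed with every cluster given the same weight in each library. So weighted, the sum had a log2 ratio of -0.12 and all 10 members together a median of -0.12. Past 1.5-fold, 1 member was higher, Cxcl3, and none lower. Over all genes, 1.44% were then higher and 2.74% lower.

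Cxcl3, a ligand of Cxcr2, was the member whose level was higher with ISO in WT cells. It went from 338 UMIs (13.9 CPM) in WT+PBS to 753 UMIs (25.6 CPM) in WT+ISO, a 1.85-fold difference (log2 ratio 0.89, counting interval 0.70 to 1.08). Given equal cluster weights, the log2 ratio was 1.21. The share of cells with a Cxcl3 UMI was 6.92% (5.90 to 8.06) in WT+PBS against 9.496% (8.32 to 10.8) in WT+ISO.

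The Cxcl3 difference was not alike in all clusters. In the macrophage-like cluster Cxcl3 stood at 31.4 CPM with PBS and 98.5 with ISO (log2 ratio 1.65, 1.41 to 1.89). In cluster 1 it stood at 28.5 and 84.8 CPM (log2 ratio 1.57, 1.12 to 2.03). In the mature neutrophil-like cluster it stood at 35.0 and 35.9 CPM, with a log2 ratio of 0.04 (-0.46 to 0.55). In cluster 5, at 1.91 and 6.81 CPM, the log2 ratio was 1.83 (0.77 to 3.06; 9 and 41 UMIs). So the counting intervals of the macrophage-like cluster and cluster 1 lay wholly above that of the mature neutrophil-like cluster, where the libraries overlapped.

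The share of macrophage-like cells with a Cxcl3 UMI was 18.4% in WT+PBS against 34.4% in WT+ISO. After thinning to 2000 UMIs per cell it was 5.72% and 13.4%, so the order held at equal depth. In the progenitor-like cluster 0.817% and 1.85% of cells had a UMI, and none did after thinning. The neighbours Cxcl1 and Cxcl2 gave log2 ratios in the macrophage-like cluster of -0.17 (-1.09 to 0.71, on 29 and 19 UMIs) and 0.15 (0.08 to 0.23).

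Ccl4 was lower with ISO in WT cells, from 3178 UMIs (130 CPM) to 1755 UMIs (59.7 CPM), a 2.18-fold difference (log2 ratio -1.13, -1.21 to -1.04). Its log2 ratio at equal cluster weights was -0.50, short of 1.5-fold. In cluster 1, Ccl4 stood at 578 CPM with PBS and 456 with ISO (log2 ratio -0.34), and in the macrophage-like cluster at 201 and 141 CPM (-0.51). In the latter, 1 cell of WT+PBS held 440 of the 1304 UMIs, and without the richest cell of each library the levels were 134 and 121 CPM, with a log2 ratio of -0.15 (-0.30 to 0.01) whose interval held 0. The same step in cluster 1 gave -0.31 (-0.45 to -0.17). In the specific-granule neutrophil-like cluster there were 315 and 22 UMIs, and 1 cell of WT+PBS alone held 219 of those 315. In cluster 5 there were 129 and 38 UMIs, 73 of the 129 in 1 cell, and in the progenitor-like cluster 26 and 117, 70 of the 117 in 1 cell. Without the richest cell of each library, the log2 ratios were -3.09 in the specific-granule neutrophil-like cluster, -1.12 in cluster 5 and 1.09 in the progenitor-like cluster, in place of -4.15, -2.12 and 1.41. Cells with a Ccl4 UMI made up 17.96% of WT+PBS and 14.97% of WT+ISO, and 36.7% and 45.8% of the macrophage-like cells. Thinned to 2000 UMIs, the macrophage-like shares were 15.7% and 16.9%, and the median UMIs per cell there were 15349 with PBS and 17724 with ISO. Without the 10 cells that held most Ccl4 UMIs in each library, the Ccl4 log2 ratio was -0.86, still past 1.5-fold lower with ISO.

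Cxcl16 was lower with ISO in WT cells, from 380 UMIs (15.6 CPM) to 174 UMIs (5.92 CPM), a 2.63-fold difference (log2 ratio -1.40, -1.66 to -1.13). At equal cluster weights, with the dendritic-cell-like cluster included, the log2 ratio was -0.17. Without that cluster, in the summed counts, it was -1.48, an alternative chosen after seeing the data. Both kinds of cell that expressed Cxcl16 were fewer in WT+ISO: the dendritic-cell-like cluster had 37 WT+PBS cells and 15 WT+ISO cells, and the macrophage-like cluster had 403 and 262. The cause was not tested. Within macrophage-like cells the level was 26.2 CPM with PBS and 13.4 with ISO (log2 ratio -0.97, -1.41 to -0.55), and within dendritic-cell-like cells it was 346 and 441 CPM, with overlapping intervals and 15 cells in WT+ISO. The share of macrophage-like cells with a Cxcl16 UMI was 22.1% and 11.5%, and thinned it was 5.22% and 1.92%. Of the sheddases, Adam17 had a log2 ratio of -0.47 and Adam10 of 0.01, neither past 1.5-fold.

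The 5 members that stayed within 1.5-fold were Ccl2 (log2 ratio -0.26), Ccl3 (-0.38), Ccl6 (-0.28), Ccl9 (-0.39) and Cxcl2 (-0.35). The counting intervals of all 5 ratios lay below 0, that of Ccl2 from -0.48 to -0.05. At equal cluster weights Ccl2 (0.33) and Ccl9 (0.22) lay above 0 and the other 3 at -0.14 to -0.10. Without the 10 richest cells of each library, Ccl3 had a log2 ratio of -0.19 and Ccl2 of -0.52. Within the macrophage-like cluster all of these were higher with ISO, Ccl2 by a log2 ratio of 0.55, Ccl3 by 0.32, Ccl6 by 0.25, Ccl9 by 0.31 and Cxcl2 by 0.15, with counting intervals above 0. Without the richest cell of each library these stayed above 0, with Ccl3 at 0.68. In the mature neutrophil-like cluster, Ccl3 (0.25) was higher and Ccl6 (-0.19), Cxcl2 (-0.23) and Ccl9 (-0.76, -1.29 to -0.23) were lower with ISO. Ccl9 rested there on 58 UMIs with PBS and 66 with ISO. In the specific-granule neutrophil-like cluster, Ccl3 (-0.45), Ccl6 (-0.23), Cxcl2 (-0.50) and Ccl9 (-1.23, on 19 and 10 UMIs) were lower. There 1 cell of WT+PBS held 10 of the 19 Ccl9 UMIs, and without the richest cells too few were left for a ratio. In the progenitor-like cluster Ccl3 (-0.56) was lower and Ccl6 (0.20) higher. In cluster 5, Ccl6 (0.11) and Ccl9 (0.49) were higher. The counting intervals of these ratios did not hold 0. In cluster 1, Ccl6 (-0.25), Ccl3 (-0.21) and Cxcl2 (-0.13) were lower in WT+ISO, while Ccl9 (0.19) and Ccl2 (0.38) were higher. The values of Ccl3, Cxcl2 and Ccl2 depended on the richest cells: 1 cell of WT+PBS held 230 of the 2031 Ccl3 UMIs there, and 1 cell held 206 of the 2065 Cxcl2 UMIs. Without the richest cell of each library, Ccl3 had a log2 ratio of -0.08 (-0.19 to 0.03), Cxcl2 of -0.03 (-0.14 to 0.08) and Ccl2 of 0.27 (-0.12 to 0.65) in cluster 1, with intervals that held 0, while Ccl6 stayed at -0.26 and Ccl9 at 0.17. Cxcl1 (-0.85) and Ccl7 (-0.36) had fewer than 100 UMIs over both libraries. The interval of the Cxcl1 ratio ran from -1.66 to -0.07 and that of Ccl7 from -1.48 to 0.75.

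The sum of the 10 chemokines within a cluster also went in both directions. It was higher with ISO in the macrophage-like cluster, at 4622 and 5436 CPM (log2 ratio 0.23), and in the progenitor-like cluster, at 320 and 341 (0.09). It was lower in the specific-granule neutrophil-like cluster, at 2832 and 2236 CPM (-0.34), in cluster 1 (-0.21) and in the mature neutrophil-like cluster (-0.18). In cluster 5, at 733 and 761 CPM, the counting interval held 0 (0.05, -0.01 to 0.12), and without the richest cell of each library it did not (0.09, 0.03 to 0.16).

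**Figure D4:**
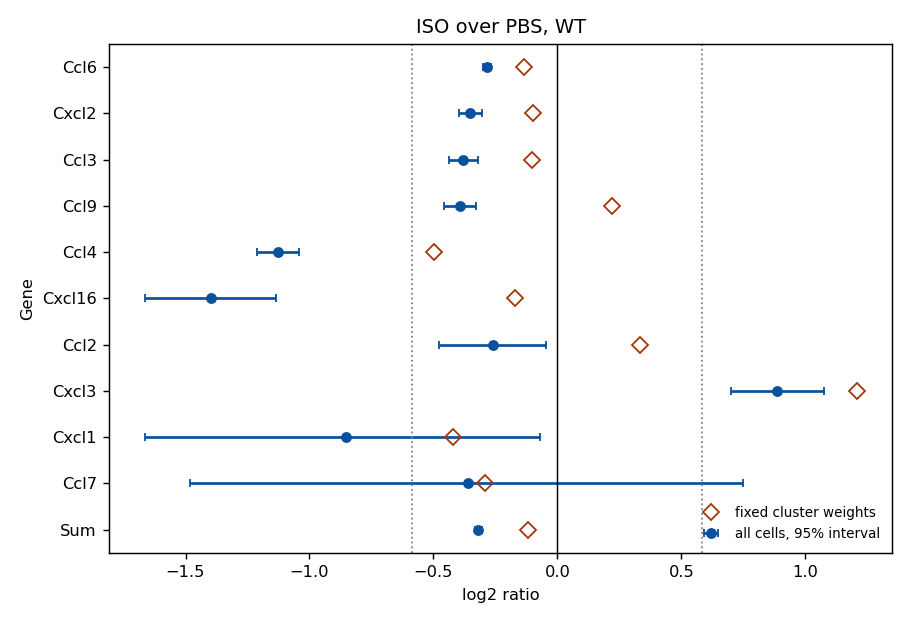
Log2 ratio of ISO over PBS for each chemokine and their sum in WT cells: filled points with 95% counting intervals for all cells, open diamonds for fixed cluster weights, the same in both libraries, dotted lines at 1.5-fold. Cxcl3 lies at 0.89 and Cxcl16 and Ccl4 at -1.40 and -1.13, with the diamonds of the last pair at -0.17 and -0.50.

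**Figure D5:**
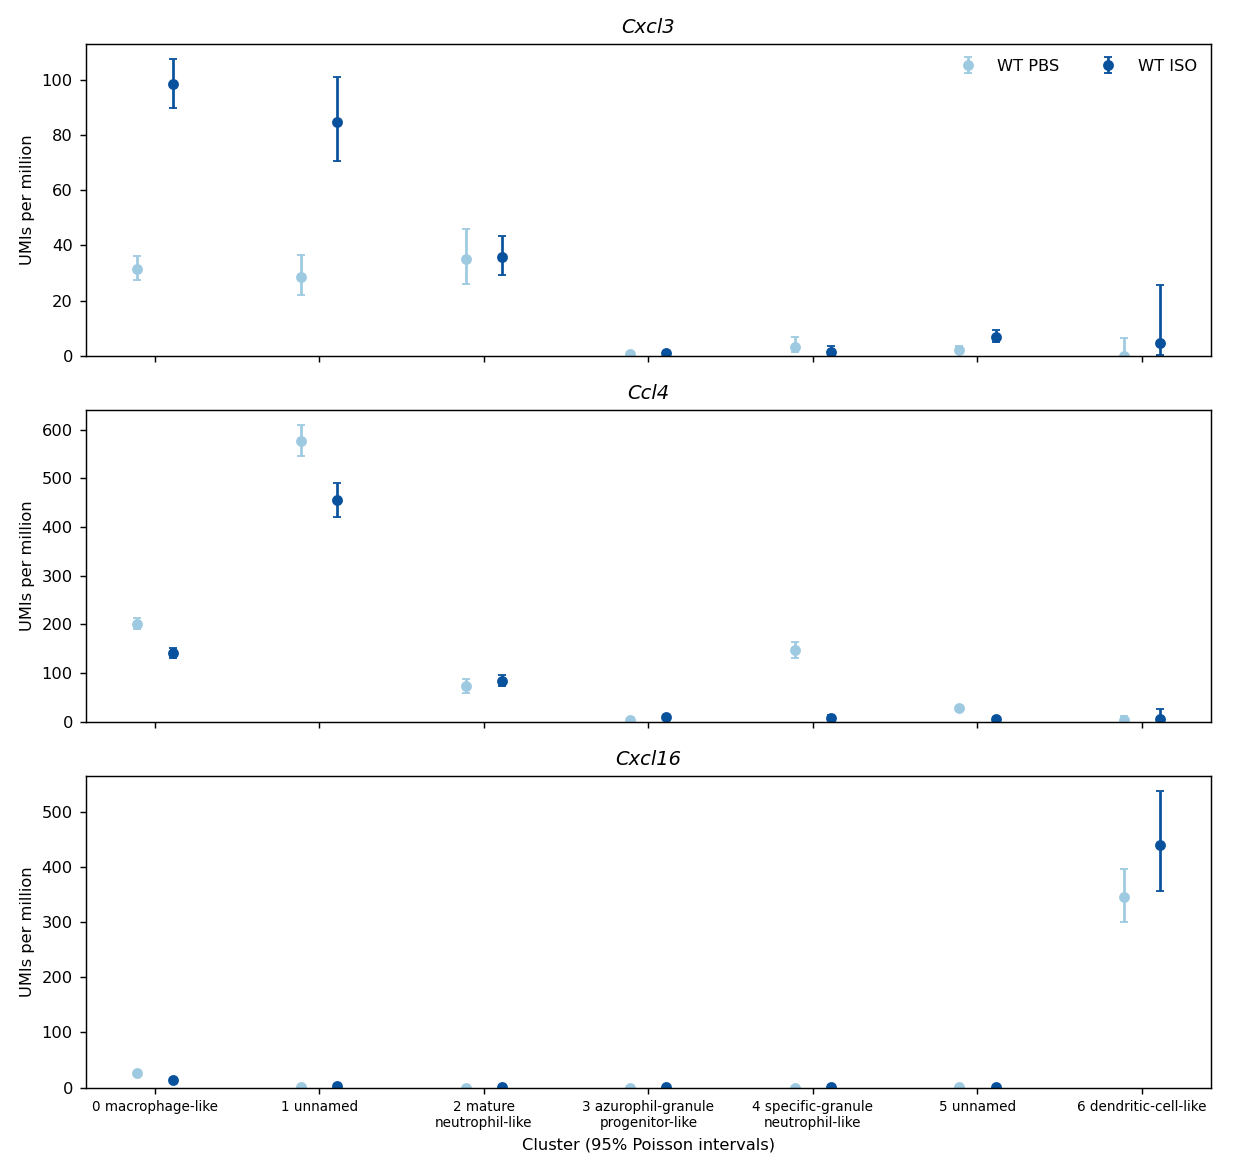
Level of Cxcl3, Ccl4 and Cxcl16 by cluster in the WT libraries, in CPM with 95% Poisson intervals. Cxcl3 is at 98.5 and 84.8 in WT+ISO in clusters 0 and 1 and at 31.4 and 28.5 in WT+PBS there, while in cluster 2 both libraries lie at 35.0 to 35.9.

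Receptors for these ligands were measured in the same cells. Of the 8 receptor genes counted, 3 had enough UMIs for a ratio. Ccr1, a receptor for Ccl3, Ccl6 and Ccl9, stood at 149.6 CPM with PBS and 130.3 with ISO. Over both libraries it was highest in cluster 1 (383 CPM) and the mature neutrophil-like cluster (328 CPM), where the CPM of Ccl6 was highest too. Ccr2, the receptor for Ccl2 and Ccl7, stood at 130.3 and 70.9 CPM and was highest in the macrophage-like cluster (310 CPM). Cxcr2, the receptor for Cxcl1, Cxcl2 and Cxcl3, stood at 40.8 and 43.2 CPM and was highest in the mature neutrophil-like cluster (242 CPM).

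With ISO, 0 of these 3 receptors were higher and 1 lower by 1.5-fold, Ccr2 (log2 ratio -0.88, and -0.44 at equal cluster weights). Over all genes with enough UMIs, 1.00% were higher and 5.50% lower. Ccr1 had a log2 ratio of -0.20 and Cxcr2 of 0.08. Cxcr6, the receptor for Cxcl16, had 6 UMIs in the WT libraries, Ccr3 had 6, Cxcr1 had 11, and Ackr1 and Ackr2 had 0.

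Other genes around the family were counted from lists. Of 24 measurable genes of the NF-κB list (factors, inhibitors and genes induced with the chemokines), 0 were higher and 4 lower by 1.5-fold with ISO in WT cells: Il1b, which encodes interleukin-1β (log2 ratio -1.54), Ptgs2, the inducible cyclooxygenase (-0.91), Traf1 (-0.89) and Tnfaip3, an inhibitor of NF-κB signaling (-0.59). At equal cluster weights Il1b (-1.20) and Ptgs2 (-0.67) were past 1.5-fold. Over all genes, 1.00% were higher and 5.50% lower by 1.5-fold, and at equal cluster weights 1.44% and 2.74%. The list's median was -0.33, beside -0.02 over all genes, and at equal cluster weights it was -0.03, beside 0.01 over all genes. Of 13 measurable genes of the cAMP response list, 0 were higher and 6 lower with ISO, led by Nr4a3 (-1.13), Pde4b, a phosphodiesterase (-0.87), Dusp1 (-0.78) and Fos (-0.63). At equal cluster weights Nr4a3 turned to 0.13, and 3 of the list were lower, Dusp1 (-0.79), Pde4b (-0.68) and Sik1 (-0.61). The list's median went from -0.49 to -0.33, beside -0.02 and 0.01 over all genes. None of the 7 AU-rich mRNA binding or decay genes was past 1.5-fold, with a median of -0.30, and of -0.10 at equal cluster weights.

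Of 25 other chemokines listed, 24 were in the files and 6 had enough UMIs. With ISO, 0 were higher and 2 lower, Ccl17 (log2 ratio -2.92) and Ccl22 (-1.28), both ligands of Ccr4. Over all genes with enough UMIs, 1.00% were higher and 5.50% lower. At equal cluster weights 2 of these 6 were higher and 2 lower, beside 1.44% and 2.74% of all genes. Pf4, a platelet and macrophage CXC chemokine, went from 0.56 to 1.20 and Ccl5 from -0.35 to 1.27, while Ccl17 was at -1.98, Cxcl10 turned from 0.40 to -0.78 and Ccl22 turned to 0.29. Ccl5 and Ccl22 were leading genes of the dendritic-cell-like cluster, so their weighted ratios lean in part on its 37 WT+PBS and 15 WT+ISO cells.

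As a description of pattern, Pearson's r of log2(CPM + 10) was computed between each member and 9673 genes over 13 sums, 1 for each cluster and WT library with at least 20 cells. These sums share libraries and depth, and no p is given. The dendritic-cell-like cluster entered with WT+PBS alone (37 cells), where Cxcl16 stood at 346 CPM, against at most 26.2 CPM in the other sums. The r values of Cxcl16 may therefore rest largely on that sum. Cxcl16 was nearest to the nuclear receptor gene Rora (r = 0.995) and the class II gene H2-Eb1 (0.992), Ccl6 to Lilrb4a (0.991), an inhibitory receptor, and Cxcl2 to the adhesion receptor Cd44 (0.97995), to Lrp12 (0.97964) and to the lectin Clec4e (0.978). Ccl9 was nearest to Mpeg1 (0.984), a macrophage pore-forming protein, and the lysosomal Ctsa (0.975). Ccl2 was nearest to Il1rl2 (0.976) and to Cstb (0.971), which encodes cystatin B, Ccl3 to Fcer1g (0.978), the common γ chain of Fc receptors, Ccl4 to Scand1 (0.939) and Cxcl3 to Zfand2a (0.933). Cxcl1, nearest to the membrane protease Mmp14 (0.969), and Ccl7, nearest to Ccdc90b (0.879), rested on few UMIs. Among the members themselves, Ccl6 and Cxcl2 were most alike (r = 0.952), and Ccl3 and Cxcl16 least alike (r = -0.46).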

How the data were processed

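The authors deposited raw UMI counts per gene and cell barcode, 1 matrix per library. The submitters' processing notes name Cell Ranger 6.0.0, Seurat and the mm10 build, whereas the matrix headers name Cell Ranger 7.0.0; the annotation is not given in the sources used here. Cells with fewer than 200 genes or over 10% mitochondrial UMIs were dropped. No doublet caller was run, and 1 alternative dropped the 5% of cells with most UMIs. Only the WT libraries are described; the other samples of the series entered the clustering and the fixed cluster weights alone, and results that need them, and some genes, are not reported here. Counts were summed over cells and scaled to UMIs per 1000000. For clustering (scanpy 1.11.5, Python 3.11.15), cells were scaled to 10000 counts, and 2000 variable genes without chemokines, 30 principal components, 15 neighbours and Leiden resolution 0.4 (seed 0) were used. A ratio was called past 1.5-fold with at least 100 UMIs over both libraries. Intervals (95%, scipy 1.17.1) are exact: binomial for shares, conditional binomial for ratios, Poisson for levels. A ratio at equal cluster weights averages the cluster levels with the same weights, each cluster's share of the 9303 cells clustered, in each library. Ratios within a cluster needed 20 UMIs of the gene. All members are named, with, for other lists, up to 4 with the greatest ratios and, chosen after their values were seen, those past 1.5-fold at equal cluster weights, and the 3 nearest genes by r at most. The members and lists were chosen with earlier results of these data known. The procedure was tested on simulated data. The simulated library sums behind the ratios held counting error only, so they could not test the intervals where few cells hold many UMIs. Per-sample columns left unused numbered 0.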

Additional observations from a re-analysis of the deposited data

How the results depend on the processing

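No paired analysis was possible because there was 1 library per group, and none could be left out. For the sum of the 10 chemokines with ISO in WT cells (log2 ratio -0.32), the value was -0.29 with a stricter cell filter (1000 genes or more, 5% mitochondrial UMIs or less), -0.34 without the 5% of cells with most UMIs, -0.30 without the 10 richest cells, -0.28 with totals without the 20 most abundant genes, -0.34 at equal weight per cell, -0.12 and -0.0710 at equal cluster weights (resolution 0.4 and 0.8), -0.35 thinned, -0.34 without the dendritic-cell-like cluster (an alternative chosen after seeing the data), -0.44 without Ccl6 and -0.37 as the median of the members. Of 3 members past 1.5-fold, 1 was left at both cluster weightings (Cxcl3), and Cxcl16 turned to 0.12 at resolution 0.8. Thinned, Cxcl16 (-1.42) had too few UMIs for a call. Cxcl3 was not past 2-fold, and Cxcl1 passed with no UMI minimum. Leaving out the richest cell of each library within a cluster was also chosen after seeing the data. The cluster with the highest level held 31.4% and 18.5% of the UMIs at resolution 0.2 (WT+PBS, WT+ISO), 11.1% and 4.42% at 0.8, 34.2% and 20.4% with 30 neighbours, 13.9% and 21.5% with 4000 variable genes, and 32.2% and 17.8% with the stricter cell filter. Of 109 recomputed member ratios, 71 stayed within the counting interval, 37 left it without a called ratio changing sign, and 1 called ratio changed sign. Signs also changed in members that were not called. Ccl2 and Ccl9 lay above 0 at both cluster weightings (0.47 and 0.28 at resolution 0.8). Ccl3 was at 0.00056 at resolution 0.8, and Ccl7 at 0.31 with the stricter cell filter. The cause was not tested. Counts of Cxcl1 and Ccl7 limit what can be said of them, and the spread between cultures is unknown throughout.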
